A study of Mus musculus with 12 samples.

Results

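The replication-dependent histone genes supply the H1, H2A, H2B, H3 and H4 proteins that package newly made DNA. They were taken as every row of the deposited gene tables whose name began with Hist1h, Hist2h, Hist3h or Hist4h and whose biotype was protein-coding, which gave 67 of the 25759 genes listed in each of the 12 tables. RNA came from mouse HATX3 embryonic stem cells (ESCs). The founder cells of this line were haploid and have since doubled their genome, and doxycycline switches on Xist from an engineered allele. There were 3 libraries in each of 4 groups. Parental (wild-type) and Cdk8-/- (ΔCdk8) cells were each taken uninduced and induced, where induced means that Xist was expressed for 48 h. All 4 groups carry the inducible Xist allele. The ΔCdk8 libraries came from clones 8, 11 and 15, each a separate line in which CRISPR/Cas9 had removed a small piece of Cdk8 with the start codon, whereas the wild-type libraries were replicates 1, 2 and 3 of the parental culture, so clone-to-clone differences and genotype cannot be told apart beyond these 3 clones. Nothing in the labels states that the wild-type replicates were separate cultures, so p-values measure the spread between these libraries.

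Most messenger RNAs end in a poly(A) tail. Transcripts of the replication-dependent histone genes are the exception in animals: they are cut just after a short stem-loop, which is bound by the stem-loop binding protein (Slbp), and are made mainly while DNA is being copied. The genes have few or no introns and lie in clusters. Replacement histones, such as H2afz and H3f3b, are instead transcribed throughout the cell cycle and carry a tail. The libraries were made from RNA selected on oligo(dT) beads, so a value here measures tailed or otherwise retained histone RNA and not the total histone message of the cell, and fewer cells in S phase and less RNA per cell cannot be told apart in these bulk samples.

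The 67 genes fell into 4 clusters on GRCm38. The Hist1 cluster held 54 members at chr13:21715763-23934851, Hist2 held 10 at chr3:96219865-96270132, Hist3 held 2 at chr11:58948920-58956830, and Hist4 was the single gene Hist4h4 at chr6:136801553-136804415. By product there were 6 H1, 18 H2A, 18 H2B, 12 H3 and 13 H4 genes, of which 61 had a single exon. All 67 positions were the same in the GENCODE M21 annotation. In 44 members (65.7%) the annotated transcript held the histone 3′ stem-loop consensus, starting 22 to 59 bases after the stop codon. Among 21464 other coding genes, 2 (0.0093%) held it within 100 bases of the stop codon, namely H2afx, which encodes the replacement histone H2A.X, and H2bfm. The stem differed by class: all 10 H4 members with a loop had a stem that opened GGCCCT, and all 34 members of the other classes had one that opened GGCTCT. The sequences below are shown because they mark the place where the tail-free transcript would end. They run 5′ to 3′ on the transcript strand with the stem-loop in capitals.

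Hist1h4i: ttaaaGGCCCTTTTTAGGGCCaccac

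Hist1h4h: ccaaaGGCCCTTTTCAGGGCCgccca

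Hist1h1c: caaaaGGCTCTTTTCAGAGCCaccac

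Hist3h2ba: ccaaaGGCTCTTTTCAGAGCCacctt

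Hist1h2bk: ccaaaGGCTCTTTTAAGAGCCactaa

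Hist1h3g: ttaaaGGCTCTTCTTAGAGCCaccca

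H2afx: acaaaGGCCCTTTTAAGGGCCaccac

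The commonest loop, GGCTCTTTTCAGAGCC, stood in 26 members, and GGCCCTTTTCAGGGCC in 7. Hist1h4i, the member with the most reads, shared its form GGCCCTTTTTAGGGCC with 1 other, Hist2h4. The consensus was not found in the annotated transcripts of Hist1h1a, Hist1h2bc and Hist2h2be, 3 of the 10 members with the highest levels, and 13 members had a transcript annotated only to the stop codon, so that no loop could be looked for. The windows are from the GENCODE M21 transcripts.

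The coding regions are also alike, which matters for how reads can be placed. All H4 coding regions are 312 bases long. The first 60 bases of 4 of them follow, with bases that differ from Hist1h4i in capitals.

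Hist1h4i: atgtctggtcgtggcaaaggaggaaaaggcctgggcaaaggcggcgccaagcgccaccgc

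Hist1h4m: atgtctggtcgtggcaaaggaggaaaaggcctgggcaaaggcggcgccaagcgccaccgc

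Hist1h4h: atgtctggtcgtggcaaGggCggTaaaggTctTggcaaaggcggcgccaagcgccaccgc

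Hist4h4: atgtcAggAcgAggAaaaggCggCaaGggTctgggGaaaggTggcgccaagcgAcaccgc

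Over all 312 bases Hist1h4m differed from Hist1h4i at 10, Hist1h4h at 13 and Hist4h4 at 41. Hist1h4m and Hist1h4n had none of their differences in the stretch shown.

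Promoters were compared by letters alone, in RefSeq windows on GRCm38.p6 from 250 bases before to 50 after each start, with either strand counted. A window was found for 61 members. CCAAT stood in 52 (85.25%), against 40.96% of 26964 other genes. It stood in every H1, H2A, H2B and H3 promoter with a window but in 3 of 12 H4 promoters (25%). TATAAA stood in 57.38% of members and 15.57% of other genes. ATTTGCAT, the octamer long known from H2B promoters, stood in 7 of 17 H2A and 7 of 16 H2B promoters, in none of the other classes, and in 1.92% of other genes.

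The libraries held 20872956 to 56457625 exon reads. Markers of ESCs such as Pou5f1 and Nanog summed to 3974 to 7544 TPM (a transcript level scaled for gene length and library depth), markers of fibroblasts to 5.99 to 82.1 TPM and of primitive endoderm to 2.63 to 8.56 TPM, with no listed marker at 0 in every library. The fibroblast sum was highest in clone 15 (82.1 TPM uninduced and 76.4 TPM induced). The 2-cell-like markers summed to 0.106 to 1.6 TPM in wild-type libraries and 0.389 to 15.3 TPM in ΔCdk8 libraries, highest in clone 15. Whether these sums come from other cells, and their part in the histone values, was not tested. Cdk8 itself was at 64.2 to 74.2 TPM in uninduced wild-type libraries and at 34.4, 56.8 and 85.3 TPM in uninduced clones 8, 11 and 15. Reads from the rest of the transcript are not removed by the small deletion, so the table values do not check it.

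Histone cluster transcripts were a minute part of the poly(A)-selected RNA. The members took 257 to 1072 exon reads per library, 8280 of 462602066 in all. Their share of exon reads was lowest in induced clone 15, at 0.000971% (95% exact binomial interval 0.000856 to 0.00110%), and highest in wild-type induced replicate 2, at 0.00297% (0.00274 to 0.00321%). Such intervals cover counting error only, since PCR duplicates were not marked by molecular identifiers. Summed over the 67 members, the level was 23.1 to 95.0 TPM. H2afz, a single replacement H2A gene with a tailed transcript, was at 1763 to 2795 TPM in the same libraries. A mean of at least 1 TPM over the 12 libraries was reached by 10 members (14.9%), against 55.3% of other protein-coding genes. The median member was at 0.302 TPM. Reads were listed for 63 members. Hist2h2ab, Hist1h2ai, Hist1h2an and Hist1h2ba had none in any library, which at this depth allows up to 3 reads in all, or 0.00649 of every 1000000 exon reads. That limit is for reads listed on a gene: Hist1h2ai and Hist1h2an share 87.4% and 81.8% of their read-length windows with other genes, to which their reads may have been assigned, so it does not bound their transcripts. The testis linker histone Hist1h1t had 31 reads, and the testis-enriched Hist1h2aa had 2.

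**Figure D1:**
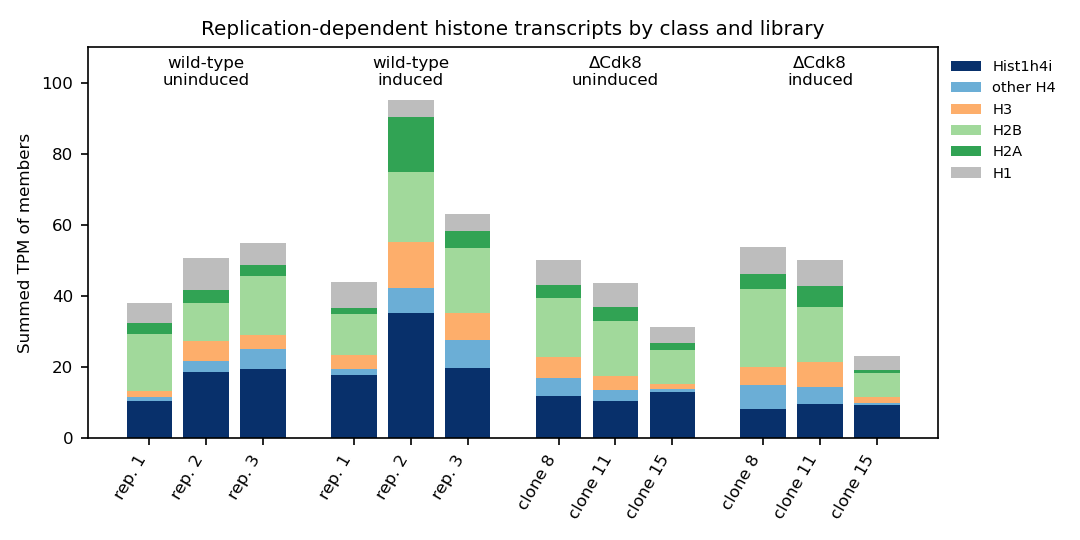
Summed TPM (y axis, linear) of the 67 members in each of the 12 libraries (bars), divided by histone class with Hist1h4i drawn apart from the other H4 genes. The wild-type induced replicate 2 is the tallest bar at 95.0 TPM, induced clone 15 is the shortest at 23.1 TPM, and Hist1h4i takes 15.3 to 41.0% of each bar.

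One H4 gene stood above the rest. Hist1h4i (ENSMUSG00000060639) lies at chr13:22040636-22041362 on the minus strand, is a single exon of 727 bases, and had 2018 of the 8280 member reads (24.4%). Its level was 10.3, 18.5 and 19.3 TPM in uninduced wild-type replicates 1, 2 and 3, and 17.6, 35.3 and 19.6 TPM after induction. In uninduced clones 8, 11 and 15 it was 11.9, 10.5 and 12.8 TPM, and after induction 8.21, 9.55 and 9.23 TPM. Hist1h4i was the highest member in each of the 12 libraries. The next H4 gene, Hist1h4b, averaged 0.847 TPM, and the other 12 H4 genes ranged from 0.103 to 0.847 TPM in their means.

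The H4 gene had 2 H2B genes beside it among the highest members. Hist1h2bk, Hist1h4i and Hist1h2bj lie within 7.81 kb at chr13:22035870-22043676, with Hist1h2ag as the only further gene in that stretch, and 1851 bases separate the starts of Hist1h4i and Hist1h2bj, which run in opposite directions. Hist1h2bk was at 1.86, 1.20 and 1.97 TPM in uninduced wild-type libraries and 1.15, 3.81 and 4.13 TPM after induction, and Hist1h2bj at 1.39, 0.924 and 2.03 TPM and then 0.168, 4.41 and 4.25 TPM. Both were higher after induction in replicates 2 and 3 and lower in replicate 1. Hist1h2bk shared 67.9% of its read-length windows with other genes and Hist1h2bj 28.3%, in both chiefly with Hist1h2br. The share of their reads placed at 1 position was 25.0% and 79.5%. Hist1h2bq and its near copy Hist1h2br, summed, went the other way, from 0.519, 0.621 and 0.618 TPM to 0.796, 0.266 and 0.175 TPM. The part of read assignment in these values was not tested. In clones 8, 11 and 15, Hist1h2bk was at 0.374, 0.806 and 0.782 TPM and then 5.20, 1.37 and 0 TPM, and Hist1h2bj at 2.31, 0.828 and 0.268 TPM and then 3.68, 1.76 and 0 TPM. Neither gene had a read in induced clone 15, and for both genes uninduced and induced libraries of each genotype overlapped. Uninduced Hist1h2bk was lower in each of the 3 clones (4, 7 and 6 reads) than in each of the 3 wild-type libraries (11, 8 and 22 reads). Uninduced groups were separate in this way for 23.5% of tested genes, and Hist1h2bk did not pass edgeR's filter on low counts in that comparison. In the 8 other fits that kept it, its log2 fold change was -1.78 to -1.18 (edgeR adjusted p = 0.120 to 0.528).

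The other H2B genes that averaged over 1 TPM were Hist1h2bc, Hist3h2ba and Hist2h2be. Hist1h2bc (chr13:23684199-23692908) was the second highest member, with 748 reads and 2.03 to 5.37 TPM. Its values were 3.13, 2.03 and 3.62 TPM in wild-type cells without and 3.24, 2.94 and 2.06 TPM with induction, and 4.46, 5.21 and 2.15 TPM and then 3.10, 5.37 and 2.32 TPM in the clones, so that clone 11 was highest and clone 15 lowest of the clones in both states. Hist3h2ba was at 3.02, 0.580 and 1.67 TPM in uninduced wild-type cells and 0.127, 0.185 and 1.07 TPM after induction, lower in 3 of 3 pairs. How many of all genes were lower in all 3 pairs was not counted. In the clones Hist3h2ba went from 1.16, 0.982 and 3.13 TPM to 0.764, 1.86 and 0.312 TPM. Hist2h2be was at 0.354 to 1.92 TPM.

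The H1 genes encode the linker histones that bind between nucleosomes. Hist1h1c (chr13:23738808-23740367) had 872 reads and was at 1.86, 2.60 and 2.0 TPM in wild-type cells without and 4.70, 2.18 and 2.22 TPM with induction, and at 2.77, 4.32 and 2.15 TPM and then 3.31, 5.18 and 1.84 TPM in the clones. Hist1h1a (chr13:23763666-23764406) had 295 reads and was at 2.28, 4.42 and 2.42 TPM in uninduced wild-type cells and 1.68, 0.918 and 1.13 TPM after induction, with no overlap. How many of all genes were separate in this way with induction was not counted. Between genotypes it was 23.5% of tested genes without and 29.2% with induction. In the clones it was at 2.82, 1.26 and 0.920 TPM and then 2.76, 1.43 and 1.81 TPM, so the groups overlapped there. The remaining 4 H1 genes had means of 0.103 to 0.600 TPM.

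H2A and H3 genes were low. Of 18 H2A genes Hist3h2a alone averaged over 1 TPM (1.05 TPM), and 3 had no reads. Of 12 H3 genes Hist1h3g alone did (1.04 TPM), and all 12 had reads. Hist1h3g was at 0.152, 1.34 and 0.403 TPM in wild-type cells without and 0.883, 1.93 and 1.46 TPM with induction, higher in 3 of 3 pairs, a pattern not counted over all genes. In the clones it was at 2.18, 1.03 and 0.234 TPM and then 0.805, 1.85 and 0.181 TPM. Across all classes, 57 members averaged under 1 TPM. These had 2760 reads in all, 30 of them passed 1 TPM in some library, and 27 members stayed below 1 TPM in every library.

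**Figure D2:**
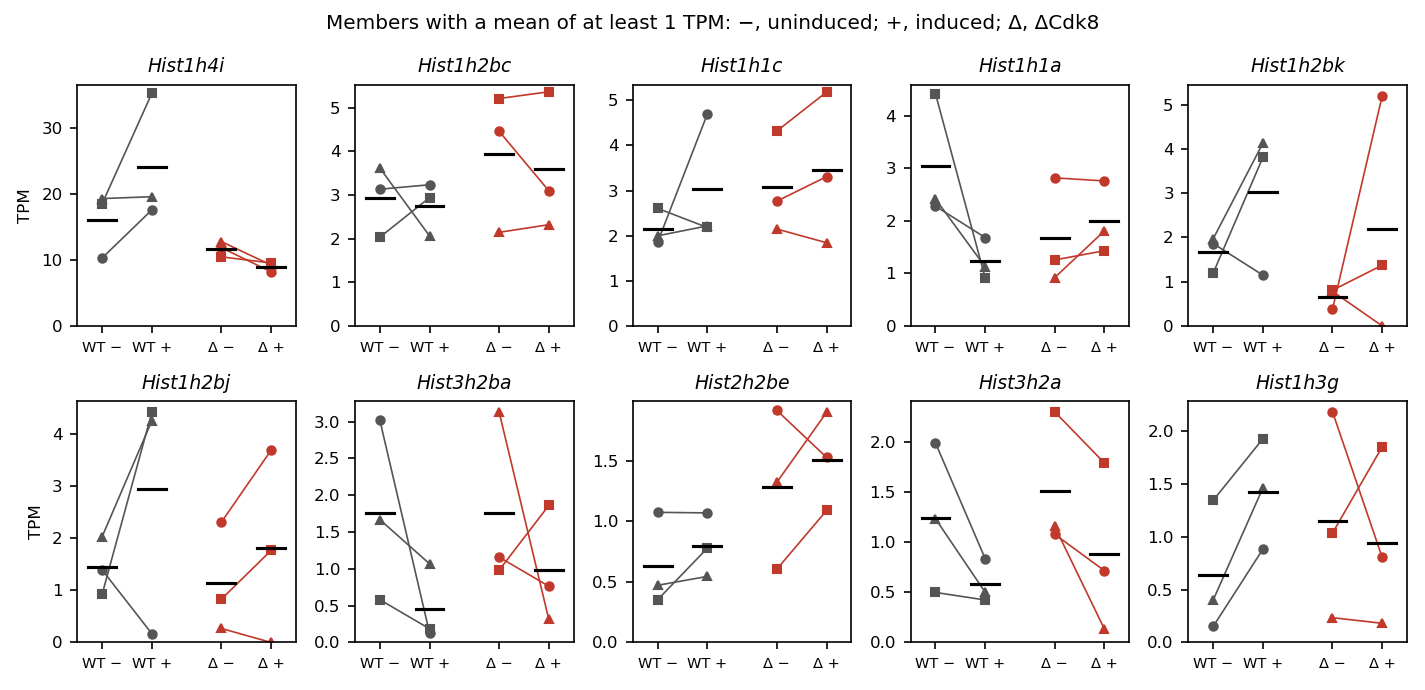
TPM (y axes, linear from 0, 1 scale per panel) of the 10 members with a mean of at least 1 TPM in wild-type (WT, grey) and ΔCdk8 (Δ, red) libraries without (−) and with (+) induction. Lines join the libraries of 1 replicate number or clone (circle, replicate 1 or clone 8; square, 2 or 11; triangle, 3 or 15) and bars are group means. Hist1h4i is the only panel in which the 3 wild-type lines slope up and the 3 clone lines slope down, though wild-type replicate 3 moves from 19.3 to 19.6 TPM only.

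Wild-type induced replicate 2 was the highest library for more of these genes than any other. It had the fewest exon reads (20872956) and the highest TPM of 21 of the 63 members with reads. How many of all genes were highest there was not counted. H2A summed to 15.3 TPM in this library against 0.804 to 5.82 TPM elsewhere. Induced clone 15 had reads for 29 members, the fewest, and was highest for none.

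The level of a member was read against where its annotated transcript ends, since the tables count reads over annotated exons. Of the 67 transcripts, 13 ended at the stop codon, 22 ran fewer than 100 bases past the stem-loop, 22 ran 108 to 4884 bases past it, and 10 ran past the stop codon with no loop found. The medians of the members' mean TPM were 0.247, 0.308, 0.306 and 0.454 in that order, so the groups overlapped widely. No member of the first group averaged 1 TPM, against 3, 4 and 3 in the others. The 22 transcripts that ran far past the loop took 58.0% of member reads and the 10 with no loop 24.3%, while the 22 short ones took 14.2% and the 13 that ended at the stop codon 3.55%. Longer transcripts collect more reads at 1 level: the median exon length was 1255 bases in the far-running group and 393 bases in the group that ended at the stop codon. The Hist1h4i transcript ran 330 bases past its loop and that of Hist1h1c 840 bases.

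**Figure D3:**
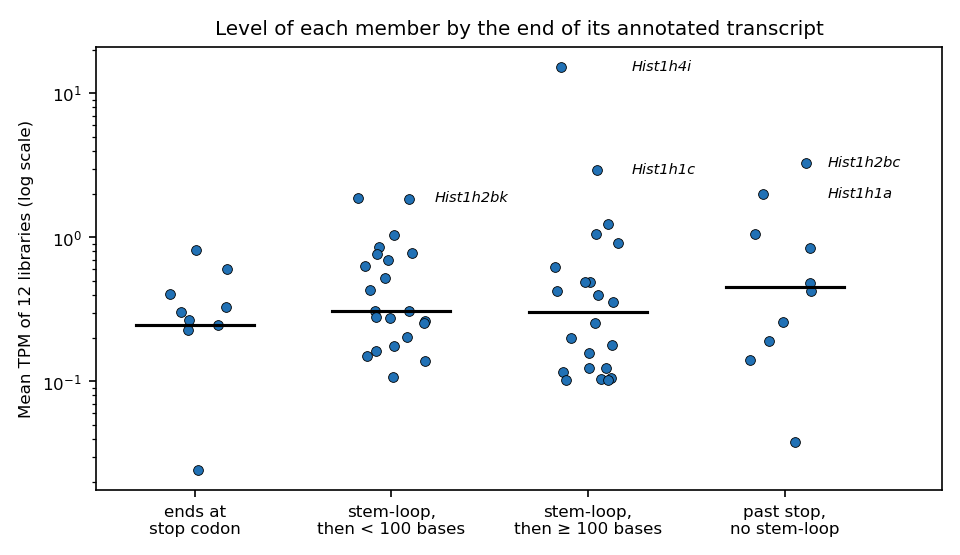
Mean TPM over the 12 libraries (y axis, log scale) of each member, by where its annotated transcript ends. Points are the 63 members with reads, the 4 at 0 are not drawn, and bars are medians over all members of a group (0.247, 0.308, 0.306 and 0.454 TPM from left to right). Members above 1 TPM are found in each group except the one that ends at the stop codon.

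Fewer histone reads than reads of other genes could be placed at 1 position. Over the 12 libraries, 6369 of 8280 member exon reads (76.9%) were listed as unique. Per library the share was 68.7% (95% exact interval 64.9 to 72.3%) in wild-type induced replicate 2 to 92.6% (88.7 to 95.5%) in induced clone 15, while for all genes it was 92.7 to 94%. By group it was 78.3% ± 0.82 (SD, n = 3) in wild-type cells without and 76.5% ± 9.45 with induction, and 77.5% ± 7.78 and 80.5% ± 10.7 in the clones, so the groups overlapped. Hist1h4i was 91.2% unique over all libraries, from 76.5% (70.5 to 81.9%) in wild-type induced replicate 2 to 100% of 70 reads (94.9 to 100%) in induced clone 15. Hist1h1c was 99.1% unique, and Hist1h1a, Hist2h2be and Hist3h2ba were 100% unique. Hist1h2bk was 25.0% unique and Hist1h2bc 70.1%.

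The unique share followed the sequence. For each member the share of its transcript's windows as long as a read that also occur in another gene was counted. It was 0 for 11 members and 50% or more for 21. Over the 53 members with at least 20 reads, the share of shared windows and the share of reads that were not unique had a Pearson's r of 0.905 and a Spearman's rho of 0.920, a description across genes that share sequence with each other. The 8 such members without a shared window were at least 98.9% unique, and the 12 with 50% or more had a median of 26.8% unique reads. Hist1h2bq had no unique read among 179 and shared 93.6% of its windows, chiefly with Hist1h2br, which had 7 among 89. Hist2h2aa2 had 0 unique of 25 reads and Hist2h2aa1 1 of 24. These are near-identical copies and their separate values are uncertain. Hist2h2aa1 had reads only in clone 8, 14 without and 10 with induction, where Hist2h2aa2 had 0 and 1. In each other library the reads of the pair, 0 to 7, were on Hist2h2aa2. Summed, the pair was at 0 to 1.5 TPM.

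Hist3h2a stood off this relation. It had 447 reads and not 1 of them unique, while 28.9% of its windows occurred in another gene. That gene is Trim17, which starts at the same base of chromosome 11 and spans chr11:58954685-58973098 on the same strand, with Hist3h2a at chr11:58954685-58956830 inside it. Trim17 was at 0 to 0.410 TPM and Hist3h2a at 0.134 to 2.30 TPM. Reads of 1 gene inside another on the same strand cannot be told apart by position, so the Hist3h2a level is uncertain. It has no value on unique reads.

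**Figure D4:**
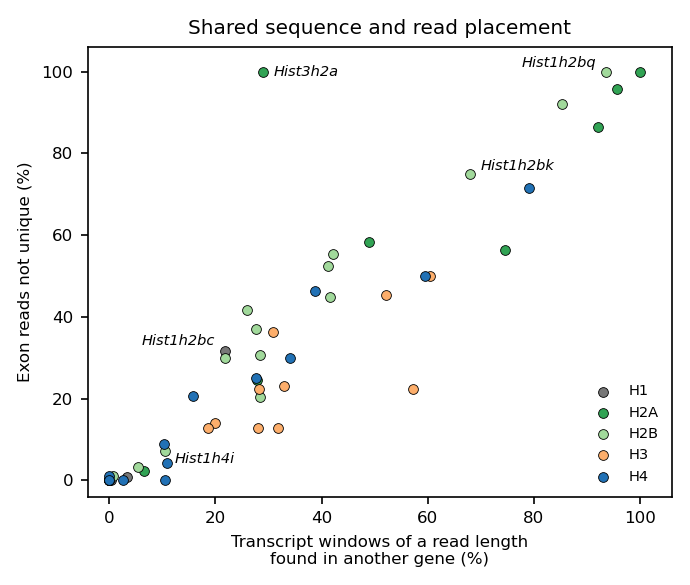
Share of exon reads not listed as unique (y axis, %) against the share of transcript windows as long as a read found in another gene (x axis, %) for the 53 members with at least 20 exon reads, coloured by histone class. Points lie near a rising diagonal, and Hist3h2a lies far above it at 28.9% shared windows and 100% of reads not unique.

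The effect of Xist induction was examined first in wild-type cells. No member changed beyond the study's threshold, more than 2-fold at an adjusted p below 0.01. The summed level was 37.9, 50.8 and 54.8 TPM without and 43.7, 95.0 and 62.9 TPM with induction, a ratio of 1.15, 1.87 and 1.15 within the pairs (mean 1.39 ± 0.42 SD, n = 3). All 3 ratios were above 1, but the mean rests on the high value of replicate 2, without which it was 1.15. Without Hist1h4i the 3 ratios were 0.947, 1.86 and 1.22. The class sums differed: H3 gave ratios of 2.52, 2.30 and 1.90, H4 1.68, 1.96 and 1.10, H2A 0.509, 3.92 and 1.59, H2B 0.724, 1.85 and 1.11, and H1 1.31, 0.532 and 0.745. H3 and H4 were higher with induction in 3 of 3 pairs and the other classes were not uniform.

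Gene by gene, 13 of the 67 members had enough reads to pass edgeR's filter in the wild-type comparison, and only these were tested, so that counts and medians over them do not stand for all members. By edgeR's quasi-likelihood test 0 of the 13 were called, when 1.07% of 13342 genes were. By DESeq2 0 were called as well, against 4.71% of genes, and in edgeR with the replicate number as a block 0 again, against 3.98%. At an unadjusted p under 0.05, edgeR gave 2 of 13, both lower, against 21% of all genes, and the blocked fit 4 of 13 against 39.4%. These shares lie at or below the background. The 13 log2 fold changes ran from -1.45 to 1.04 with a median of 0.37, against 0.03 over all genes. Without replicate 2 the median was 0.22 over 14 members, or 0.07 in the blocked fit. The 2 lower ones were Hist1h1a (log2 fold change -1.24 ± 0.46 SE, edgeR adjusted p = 0.189) and Hist1h2bq (-1.45 ± 0.48, edgeR adjusted p = 0.153). Hist1h2bq had no unique reads, and summed with its near copy Hist1h2br it was at 0.519, 0.621 and 0.618 TPM without and 0.796, 0.266 and 0.175 TPM with induction, so the pair was higher in replicate 1 and lower in replicates 2 and 3. The Hist1h1a value rests partly on replicate 2, and leaving out 1 replicate at a time gave -1.65 to -0.72. Hist1h4i had a log2 fold change of 0.63 ± 0.38 (edgeR adjusted p = 0.401), or 0.60 ± 0.22 in the blocked fit (edgeR adjusted p = 0.100). It was 0.36 without replicate 2 and up to 0.90 without another replicate.

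In ΔCdk8 cells the same comparison gave ratios on both sides of 1. The summed level was 50.1, 43.7 and 31.2 TPM in uninduced and 53.6, 50.2 and 23.1 TPM in induced clones 8, 11 and 15, with ratios of 1.07, 1.15 and 0.740 (mean 0.987 ± 0.22 SD, n = 3). Of the 67 members 14 were tested. By edgeR 0 were called, when 0% of 14129 genes were, and 0 had an unadjusted p under 0.05, against 2.41% of genes. DESeq2 called 0, against 0.219% of genes. The fit with the clone as a block called 0 members, against 1.42% of genes, and 1 of 14, Hist3h2a, had an unadjusted p under 0.05 there, against 24%. Hist3h2a was at 1.08, 2.30 and 1.16 TPM without and 0.715, 1.79 and 0.134 TPM with induction (log2 fold change -0.89 ± 0.39 SE, blocked edgeR adjusted p = 0.165, and -0.45 without clone 15). In wild-type cells it was at 1.99, 0.498 and 1.23 TPM and then 0.835, 0.423 and 0.50 TPM. It was thus lower in 6 of 6 pairs, with the uncertainty from Trim17. How many of all genes were lower in every pair was not counted. Over the 14 the median was 0.03 on the log2 scale, when over all genes it was 0.02, and without 1 clone at a time it ran from -0.10 to 0.08. Hist1h4i had 0.692, 0.911 and 0.721 times its uninduced TPM in clones 8, 11 and 15 (log2 fold change -0.33 ± 0.29, edgeR adjusted p = 1.000).

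Whether induction acted differently in the 2 genotypes was tested by the interaction term over all 12 libraries, which uses the same libraries as the comparisons above. The pairs of Hist1h4i and of the lower Hist1h4b went apart, up in 3 of 3 wild-type pairs and down in 3 of 3 clones. Such opposite pairs, in either direction, were found for 2 of the 63 members with reads (3.17%), against 2.81% of all 18516 genes with reads, and for 1 of the 22 members tested, against 3.4% of genes tested, so the members' share lay near the background. The TPM of Hist1h4i with induction was 1.71, 1.90 and 1.01 times that without in wild-type replicates 1, 2 and 3 (mean 1.54 ± 0.47 SD, n = 3), and 0.775 ± 0.12 times in the clones. The interaction was -0.94 ± 0.47 on the log2 scale (edgeR adjusted p = 1.000, unadjusted p = 0.0733), and -0.92 ± 0.29 in the blocked fit (adjusted p = 0.0935, unadjusted p = 0.00957), so it did not pass the threshold. Hist1h4b, with 67 reads of which 53.7% were unique, did not pass the filter. In the 11 other fits that kept it, its interaction was -3.53 to -1.27 (edgeR adjusted p = 0.250 to 1.000). It was at 0, 1.08 and 1.5 TPM in wild-type cells without and 0.196, 2.0 and 1.95 TPM with induction, and at 0.784, 1.24 and 0.625 TPM and then 0.537, 0 and 0.241 TPM in the clones. Hist1h1a had an interaction of 1.57 ± 0.77 (edgeR adjusted p = 1.000), or 1.02 without wild-type replicate 2, in the direction opposite to Hist1h4i. Of the 67 members 22 were tested. None was called by edgeR, when 0% of 14418 genes were, and 0 had an unadjusted p under 0.05, against 3.91%. DESeq2 called 0, against 0.222%. With the block 0 were called, against 1.01%, and 2 of 22 had an unadjusted p under 0.05, against 22.7%, namely Hist1h1a and Hist1h4i. Of the 22 log2 interaction values 15 were below 0, with a median of -0.39 against 0.01 over all genes. Without wild-type replicate 2 the values were 14 below and 13 above 0 over 27 members, with a median of -0.27, or -0.04 in the blocked fit.

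Without induction the genotypes overlapped. The summed level of the clones was 1.05, 0.913 and 0.653 times the wild-type mean of 47.8 TPM for clones 8, 11 and 15 (mean 0.871 ± 0.20 SD, n = 3). Of the 67 members 13 were tested. By edgeR 0 were called, when 0% of 13961 genes were, and 0 had an unadjusted p under 0.05, against 20.2% of genes. DESeq2 called 0, against 2.47%. The TPM ranges of the 3 wild-type and 3 clone libraries were separate for 0 of the 13, against 23.5% of genes. Hist1h4i in the clones (10.5 to 12.8 TPM) lay within the wild-type range (10.3 to 19.3 TPM), with a log2 fold change of -0.61 ± 0.34 (edgeR adjusted p = 0.326). That of Hist1h1a was -0.99 ± 0.59 (edgeR adjusted p = 0.356), and without 1 library at a time it ranged from -1.57 to -0.62. The median over the 13 was 0.12, against 0.02 over all genes, and its sign was not stable: it was -0.20 over 22 members when all 12 libraries were fitted together, -0.14 over 16 without clone 8, and -0.45 over the 63 members with reads when no filter was used.

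With induction the sums of the genotypes overlapped as well, since clones 8 and 11 (53.6 and 50.2 TPM) were above wild-type replicate 1 (43.7 TPM). Of the 11 members tested, Hist1h4i had the lowest log2 fold change. The summed level was 0.798, 0.746 and 0.344 times the wild-type mean of 67.2 TPM in clones 8, 11 and 15 (mean 0.629 ± 0.25 SD, n = 3). Leaving out wild-type replicate 2 made this 0.793, and leaving out clone 15 made it 0.772. Without Hist1h4i the 3 ratios were 1.05, 0.943 and 0.322, so that clones 8 and 11 were then near the wild-type mean and clone 15 was not. By class the mean ratios were 0.439 ± 0.0928 for H4, 0.489 ± 0.349 for H2A and 0.562 ± 0.319 for H3 (SD, n = 3). They were 0.893 ± 0.464 for H2B and 1.15 ± 0.372 for H1. The Hist2 and Hist3 clusters gave 1.32 ± 0.34 and 1.78 ± 1.56. The genotypes overlapped in all of these sums except H4. The H2A ratio rests on wild-type replicate 2. H2A was at 1.67, 15.3 and 4.85 TPM in wild-type replicates 1, 2 and 3. It was at 4.05, 5.82 and 0.804 TPM in clones 8, 11 and 15. Class ratios without replicate 2 were not computed. Hist1h4i was at 9.0 ± 0.70 TPM in the clones and 24.1 ± 9.68 TPM in wild-type cells (SD, n = 3), and the lowest wild-type library (17.6 TPM) exceeded the highest clone (9.55 TPM). The log2 fold change was -1.55 ± 0.38 SE. It missed the threshold in edgeR (adjusted p = 0.0778) and passed it in DESeq2 (adjusted p = 0.00151), where Hist1h4i was the 1 member called of 11 tested, against 5.52% of 13527 genes. By edgeR 0 members were called, when 0% of genes were, and Hist1h4i alone of the 11 had an unadjusted p under 0.05, against 25.4% of genes. On unique reads the log2 fold change was -1.42 ± 0.34 (edgeR adjusted p = 0.0721). Leaving out 1 library at a time gave log2 fold changes of -1.76 to -1.18, all below 0.

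Separate TPM ranges were found for 2 of the 11, Hist1h4i and Hist2h2be, against 29.2% of genes. Hist2h2be, an H2B gene of the Hist2 cluster on chromosome 3, was at 1.07, 0.779 and 0.546 TPM in induced wild-type cells and 1.53, 1.09 and 1.90 TPM in induced clones 8, 11 and 15, higher in every clone (log2 fold change 0.78 ± 0.44, edgeR adjusted p = 0.300). Without induction its ranges overlapped, with 1.08, 0.354 and 0.472 TPM in wild-type cells and 1.92, 0.606 and 1.33 TPM in the clones (0.86 ± 0.61, edgeR adjusted p = 0.420, and 0.45 to 1.46 without 1 library at a time). Across chromosome 3, the median ratio of a gene's TPM to the induced wild-type mean was 1.56, 0.983 and 1.87 in clones 8, 11 and 15 over 529 expressed genes, and 1.53, 0.983 and 1.62 over 46 genes within 1 Mb of the Hist2 members. Over all autosomes the medians were 1.05, 0.987 and 1.13. The part of this chromosome-wide difference in the Hist2h2be values was not tested. Near the Hist1 cluster the medians were 0.926, 0.916 and 1.34 over 19 expressed genes in induced cells. Near Hist4h4 they were 0.794, 0.532 and 0.789 over 8 genes, and Hist4h4 had 1 to 10 reads per library.

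**Figure D5:**
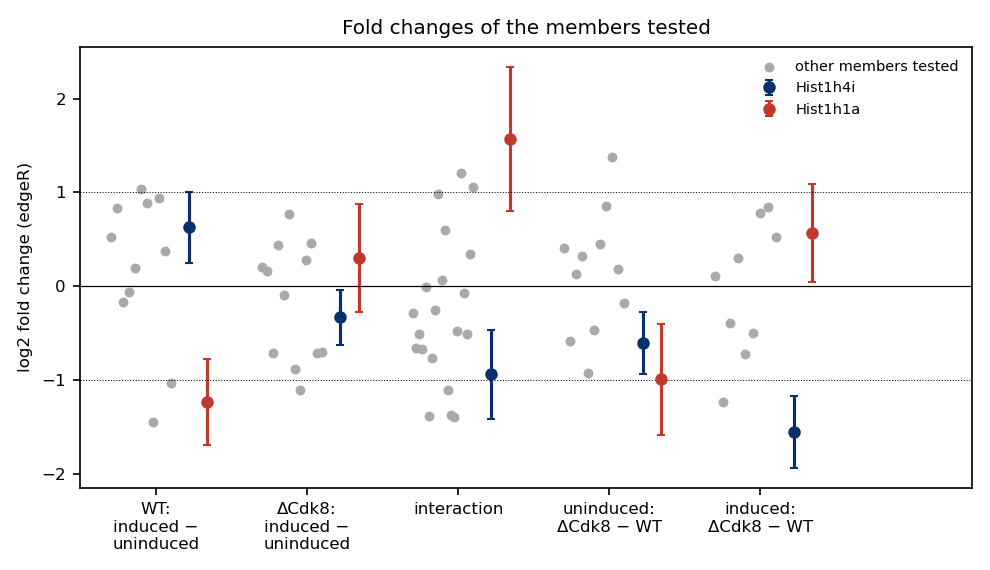
Log2 fold changes from edgeR (y axis) of the members tested in each of the 5 comparisons, with Hist1h4i (blue) and Hist1h1a (red) drawn with their standard errors and the other members as grey points. Dotted lines mark a fold change of 2. Hist1h4i runs from 0.63 in wild-type induction to -1.55 between genotypes with induction, and none of the points passed the adjusted p threshold.

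The other histone genes and the genes that act on histone RNA were read from lists. Outside wild-type induction (1.07% of genes) edgeR without the block called 0% of all genes, so that a count of 0 over a list was fixed there, whereas DESeq2 called 0.219 to 5.52% of genes across the 5 comparisons. Unadjusted p-values under 0.05 were found in edgeR for 2.41 to 25.4% of genes without the block and 22.7 to 39.4% with it. Of 12 replacement histones 11 were tested and none was called by edgeR. In a comparison 0 to 2 of them had an unadjusted p under 0.05 without the block, and 1 to 3 with it. H2afj, a replacement H2A gene that lies a few kilobases from Hist4h4 on chromosome 6, was at 25.9 to 31 TPM in uninduced wild-type cells and 10.8 to 14.3 TPM in the clones, and at 26.8 to 43.0 and 7.17 to 18.5 TPM with induction. Its log2 fold changes between genotypes were -1.38 ± 0.24 (edgeR adjusted p = 0.115) and -1.63 ± 0.42 (edgeR adjusted p = 0.0840), and DESeq2 called both. H2afx, which carries a stem-loop and a transcript that runs 822 bases past it, was at 55.9 to 253 TPM, far above any cluster member, with overlapping groups.

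Of 22 histone RNA processing genes found, all were tested and 0 were called by edgeR, with the block or without it, or by DESeq2. In edgeR without the block 0 to 4 had an unadjusted p under 0.05. With the block it was 8 for wild-type induction, 4 for ΔCdk8 induction and 6 for the interaction, against 39.4, 24 and 22.7% of genes. Slbp, whose protein binds the stem-loop, was at 118 to 177 TPM. Cstf2, an X-linked gene for a subunit of the cleavage stimulation factor, was at 51.8 to 60.3 TPM without and 28 to 32.2 TPM with induction in wild-type cells (log2 fold change -0.88 ± 0.11, edgeR adjusted p = 0.00865), under the fold limit. Coil, the coilin gene, was at 30.5 to 44.4 and then 52.3 to 61.4 TPM (0.64 ± 0.16, edgeR adjusted p = 0.0809). Among 21 histone chaperones 0 were called in the fit without the block and 1 with it in wild-type induction, the X-linked Rbbp7, at 260 to 396 TPM without and 84.7 to 152 TPM with induction (blocked log2 fold change -1.41 ± 0.07, edgeR adjusted p = 0.000612). DESeq2 called it too. Xist is known to repress X-linked genes, and the part of that in the Cstf2 and Rbbp7 values was not tested. None of 20 S phase genes was called by either tool in any comparison, and 0 to 3 had an unadjusted p under 0.05 in edgeR without the block. With the block it was 7 for wild-type induction, 3 for ΔCdk8 induction and 6 for the interaction. On the log2 scale the list's median was -0.01 for induction in wild-type cells, 0.01 for induction in the clones, -0.25 between genotypes without and -0.23 with induction, where all genes gave 0.02 to 0.03. Of 9 genes for the usual poly(A) site and nuclear decay, edgeR called 0 in each comparison, with 0 to 3 at an unadjusted p under 0.05, and DESeq2 called Cstf3 lower in induced clones (edgeR log2 fold change -1.03 ± 0.19, adjusted p = 0.0596).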

How the data were processed

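PolyA RNA of 12 mouse ESC libraries was sequenced as single-end reads of 125 bases. Per the study's methods, the authors mapped untrimmed reads to Ensembl 94 gene models of GRCm38 in CLC Genomics Workbench 11, and how it shared reads that fit several genes is not given in the sources used here. The deposited tables gave exon and gene read counts, TPM (scaled by the authors for exon length and depth) and the fraction of exon reads that were unique. Members and gene lists were chosen with earlier results of these data known. Total exon read counts were tested with edgeR 4.0.16 (quasi-likelihood, TMM scaling, filterByExpr with a minimum count of 10) in R 4.3.3, fitting only the groups compared, with the interaction over all 12 libraries; the fold is above 2 and the Benjamini-Hochberg adjusted p, over all genes tested, under 0.01. DESeq2 1.42.0 was the alternative, and other alternatives changed the scaling, filter, read type, threshold, libraries and block. SE is the log2 fold change divided by the square root of F. Summed TPM had no test. Members averaging at least 1 TPM over the 12 libraries could be named with values, besides tested members at an unadjusted p under 0.05, near-identical copies and testis genes; of each list, called genes and those with the largest changes. Replicate numbers and clones were taken as pairs, since clones are the same lines and same-numbered libraries deviated together (correlations of deviations from group means 0.586 to 0.699 in wild-type and 0.866 to 0.915 in ΔCdk8 libraries, over 13986 genes). The scripts were first run on simulated counts with known changes. Windows, loops and motifs were found in GENCODE M21 and RefSeq sequences.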

Additional observations from a re-analysis of the deposited data

Results flagged for a closer look

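Of the 67 members, 2 moved in opposite directions in all pairs of the 2 genotypes, Hist1h4i and Hist1h4b. Among the 63 members with reads that is 3.17%, against 2.81% of all genes with reads. The TPM of Hist1h4i went up in 3 of 3 wild-type pairs and down in 3 of 3 clones with Xist induction. The test of that difference, the interaction of genotype and induction, gave -0.94 ± 0.47 SE on the log2 scale in edgeR (adjusted p = 1.000), and -0.92 ± 0.29 with the replicate block (adjusted p = 0.0935), so it did not pass the threshold. The range of adjusted p over all alternatives was 0.0595 to 1.000. Wild-type replicate 3 moved only from 19.3 to 19.6 TPM. Hist1h4b, which averaged 0.847 TPM over 67 reads, went the same ways, and its mean change with induction was 0.522 ± 0.369 TPM in wild-type cells and -0.624 ± 0.54 TPM in the clones (SD, n = 3), a difference of -1.15 TPM. It did not pass the edgeR filter on low counts, and the 11 other fits that kept it gave an interaction of -3.53 to -1.27 on the log2 scale (edgeR adjusted p = 0.250 to 1.000).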

How the results depend on the processing

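No call of a member changed direction. The summed ratio for ΔCdk8 induction, 0.987, lay on both sides of 1 across settings (1.06 without Hist1h4i and 1.02 with clones unpaired), each within the spread of the clones, and the sign of the median over members between uninduced genotypes changed with the fit. The counts of called members are little guide to stability: 36 of 68 alternative fits called no gene at all, so that 0 members was fixed there, and of the 32 that called any gene 1 called a member. In it DESeq2 called 1 member, Hist1h4i, between induced genotypes (adjusted p = 0.00151, range over its alternatives 0.00151 to 0.295), where edgeR called 0. The replicate block called 0 members in each comparison it could be used for, and changed no call of a member. Leaving out a library called 0 members, but 19 of the 24 unblocked fits of this kind called no gene, while the 12 blocked ones (chosen after seeing the data) called 9 to 1209 genes. It gave a summed ratio of 1.15 to 1.51 in wild-type induction, 0.905 to 1.11 in ΔCdk8 induction, 0.783 to 0.980 between uninduced and 0.536 to 0.793 between induced genotypes. The members' counts limit these tests: 11 to 22 of the 67 members had enough reads to be tested in a comparison, and a missed threshold does not show that a member was unchanged.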
